A study of Mus musculus with 12 samples.

Results

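BV2 microglial cells lacking Atg5 were compared with wild-type (WT) BV2 cells in plain medium, across all genes measured. BV2 is an immortalised mouse microglial cell line. The table lists 46078 genes, 16924 of which had a read in at least 1 library, and the comparison covers the 10981 genes whose log2 value reached 3 in at least 3 of the 12 libraries. In all, 47 of them differed between the genotypes, 34 lower and 13 higher in knockout (KO) cells. The lower genes included the 3 subunits of complement C1q, the interferon-pathway genes Usp18 and Lgals3bp, and 7 genes with no read in any KO library in medium.

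Both genotypes were grown in DMEM with 10% serum and kept for 24 h either in medium or with 1 U/mL interferon gamma (IFNγ), which gives 4 groups of 3 libraries with the letters A, B and C. The labels give the genotypes as wild type and Atg5 knockout and say that replicates were generated independently. They do not say how many knockout clones were used, so a difference between the genotypes and a difference between cell clones cannot be told apart. RNA came from the cytosol after a mild lysis that left nuclei behind, and libraries were primed on the poly-A tail, so that each read marks the 3′ end of a transcript.

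The 3 WT libraries in medium held 7250217, 6374229 and 5328094 reads on genes, and the KO libraries 3329849, 6814208 and 5059603. Values are log2(normalised count + 1), and a difference is KO minus WT on that scale with its standard error. KO A was the shallowest of the 12 and lay farthest from the others on the first principal component of the 6 medium libraries, which took 31.5% of their variance. All 15 microglial and macrophage markers were measured and none passed the threshold (limma, 0 called, 1 at an unadjusted p under 0.05, 0 by voom). Their differences ran from -0.73 for Lyz2 (adjusted p = 0.21) to 0.23 for Spi1 (adjusted p = 0.845). Csf1r, the receptor that microglia need to survive, was at 9.51 ± 0.17 in WT and 9.35 ± 0.11 in KO cells (SD, n = 3). The resting microglia markers P2ry12 and Tmem119 were near the limit of the table in both genotypes, with 43 and 47 reads over the 6 medium libraries. Of 56 markers of 8 other cell types, 43 had no read in medium.

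Atg5 is joined to Atg12 in a ubiquitin-like reaction, and together with Atg16l1 the pair acts as the ligase that attaches LC3 and its relatives to lipid on growing autophagosome membranes. In macrophages and microglia the same machinery also tags phagosomes and takes part in the action of interferon-induced GTPases. C1q is the recognition molecule that starts the classical complement pathway, and in the brain microglia are its main source. Antiviral interferon-stimulated genes are switched on by the transcription factors of the ISGF3 complex, which read a promoter element called the ISRE.

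The genes C1qb, C1qc and C1qa lie next to each other on the minus strand of chromosome 4 (C1qb at chr4:136880129-136886187, C1qc at chr4:136889804-136893065 and C1qa at chr4:136895917-136898803, GRCm38). The gaps between them were 3617 and 2852 bases. Stretches before the gene starts of C1qb and C1qc are shown because these neighbours moved together. The capitals mark the core read by PU.1, the lineage factor of macrophages, which was searched as GAGGAA on both strands. Sequences are from RefSeq on GRCm38.p6, read along the gene's own strand. The C1qb stretch is chr4:136886201-136886260, with its match starting at position -30 from the RefSeq start of the gene. The C1qc stretch is chr4:136893075-136893134, with its match starting at -193 from its RefSeq start. These RefSeq starts differ from those of the gene positions given above, which are from GENCODE M21.
C1qb: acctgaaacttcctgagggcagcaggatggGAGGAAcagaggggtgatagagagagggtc
C1qc: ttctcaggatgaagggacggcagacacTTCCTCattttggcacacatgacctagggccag
A promoter window, from 250 bases before to 50 after the start, was found for 33 of the 47 genes and for 8211 genes tested. The core stood in 9 of 24 lower genes (37.5%), 2 of 9 higher genes (22.2%) and 30.4% of all windows, so it is a common word among promoters.

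In the antiviral list, the ISRE was searched as GAAANNGAAA on both strands. It stood in 23 of 50 promoter windows (46.0%) against 3.97% of all windows, and in none of the 24 lower or 9 higher genes with a window. Usp18 and C1qa are among those with no window. Stretches from 3 antiviral genes with lower mean values in KO cells are shown with each match in capitals, to show what the element looks like where it was found: Ifit1 at chr19:34640760-34640819, Slfn9 at chr11:82991841-82991900 and Rsad2 at chr12:26456538-26456597.
Ifit1: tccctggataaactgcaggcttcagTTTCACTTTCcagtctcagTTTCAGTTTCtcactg
Slfn9: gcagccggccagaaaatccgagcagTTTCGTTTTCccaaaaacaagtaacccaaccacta
Rsad2: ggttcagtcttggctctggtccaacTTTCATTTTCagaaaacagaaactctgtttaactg

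The 47 genes were 0.428% of the 10981 tested, the 34 lower genes 0.31% and the 13 higher genes 0.118% (limma, Benjamini-Hochberg adjusted p under 0.05). At an unadjusted p under 0.05 there were 521 lower (4.74%) and 386 higher genes (3.52%), 8.26% of all. The 3 KO values lay entirely on one side of the 3 WT values in 1491 genes (13.6%), in 7.37% of genes below and in 6.21% above, and all 47 were among them. With IFNγ 54 genes differed (0.492%); the means of that comparison come from other libraries, but the filter and the estimate of the spread are shared with the comparison in medium. Of the 47, 44 had a difference of the same sign there, whatever its size, and 15 passed there too. The share of genes with the same sign over all genes tested was not counted.

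**Figure D1:**
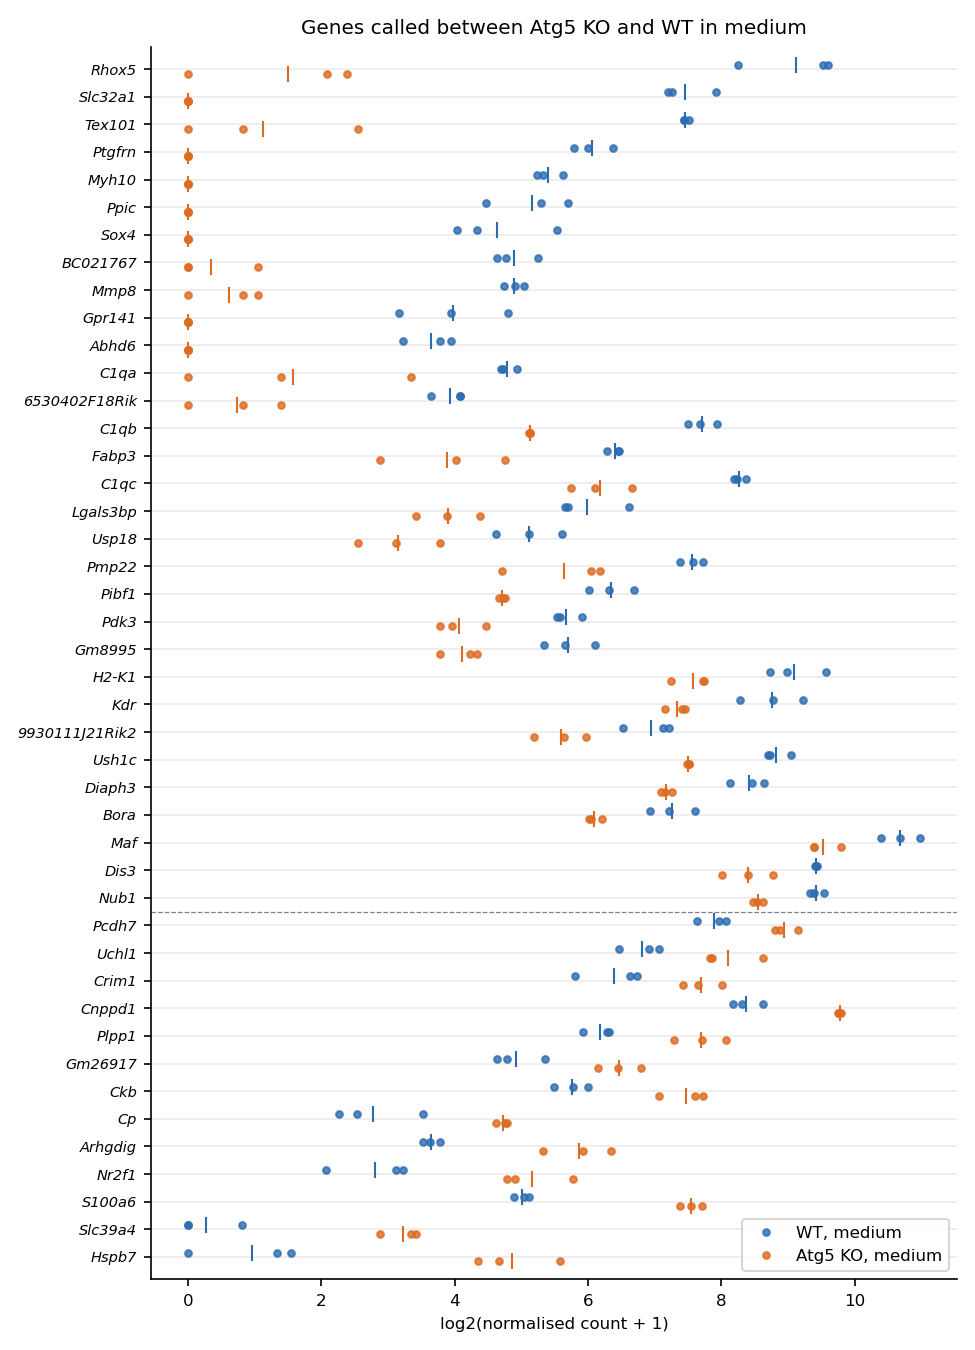
The log2(normalised count + 1) of 44 of the 47 genes in the 3 WT (blue) and 3 KO (orange) libraries in medium, with a tick at each group's mean. Genes above the dashed line are lower in KO cells, those below it higher, and 7 genes have all 3 KO libraries at 0.

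Several genes were clearly present in WT cells and had no read or almost none in KO cells. Slc32a1, the transporter that loads GABA and glycine into synaptic vesicles, was at 7.26, 7.20 and 7.91 in WT A, B and C and had no read in the 3 KO libraries. Against a floor of 3 reads over the KO group it was at least 168-fold lower (adjusted p = 3.23e-08). With IFNγ it again had no KO read and was at least 119-fold lower. Ptgfrn, a membrane protein that associates with tetraspanins, was at 5.80, 6.38 and 6.0 in WT libraries and had no read in KO, at least 63.7-fold lower (adjusted p = 6.62e-06), and at least 63.8-fold lower with IFNγ. Ppic, a cyclophilin of the secretory pathway, was at 4.47, 5.70 and 5.30 against no KO read, at least 34.9-fold lower (adjusted p = 0.000279), and at least 39.2-fold lower with IFNγ. For these 3 genes the KO cells gave no read in 6 of 6 libraries across both treatments. These floors cover counting error only, since reads were not counted by molecular identifiers.

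Rhox5, a homeobox gene of the X chromosome best known from testis, was the most abundant of this group. It was at 8.25, 9.52 and 9.61 in WT A, B and C and at 2.08, 0 and 2.39 in the KO libraries, which held 6 reads between them. The difference was -7.63 (SE 0.52, adjusted p = 3.65e-08). Under IFNγ it had no KO read and was at least 464-fold lower. Tex101, a germ cell surface protein, was nearly the same in every WT library at 7.44, 7.44 and 7.51 and was at 2.55, 0.82 and 0 in KO, a difference of -6.34 (SE 0.64, adjusted p = 1.45e-05). Under IFNγ the difference of Tex101 was -7.09 (SE 0.64, adjusted p = 3.02e-06). The calls of Slc32a1, Ptgfrn, Ppic, Rhox5 and Tex101 held whichever medium library was left out.

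Myh10, the heavy chain of nonmuscle myosin IIB, was read in KO cells only with IFNγ. In medium it was at 5.63, 5.24 and 5.33 in WT A, B and C and had no read in the KO libraries, where the WT group had 151 reads. It was at least 39.9-fold lower in KO (adjusted p = 1.99e-05), and the call held whichever medium library was left out (adjusted p 0.000114 to 0.000895). With IFNγ the KO libraries A, B and C reached 6.93, 6.72 and 4.40 beside 7.04, 7.30 and 5.78 in WT, so the groups overlapped and the difference was -0.69 (SE 0.56, adjusted p = 0.666). The change of the genotype difference between treatments was 4.71 (SE 0.79) and did not pass over all genes (adjusted p = 0.106). Without the IFNγ libraries C, in which the interferon-induced GTPases were the lowest of their groups, it was 5.06 (SE 0.60, adjusted p = 0.00228). It passed as well with a replicate block (adjusted p = 0.0325) and with a pseudocount of 0.25 (adjusted p = 0.00566). The difference in medium itself missed the threshold with voom on the recovered reads (adjusted p = 0.218). Myh10 was the only member of 43 measured actin, myosin and cell shape genes that differed, and the median of that list was 0.01.

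Mmp8, the neutrophil collagenase, was at 4.90, 5.04 and 4.75 in WT and 0, 0.82 and 1.04 in KO, a ratio of 41.6 (11.2 to 348, adjusted p = 0.0122). Its call ended without WT A (adjusted p = 0.0826), WT B (0.146), WT C (0.0901) or KO A (0.0513). The other genes of this kind were named after their values were seen. Sox4, a transcription factor of progenitor cells, was at 5.54, 4.33 and 4.03 in WT with no KO read, at least 26.4-fold lower (adjusted p = 0.00842), but not without WT A (adjusted p = 0.107) or WT B (0.0589). The orphan receptor Gpr141, at 3.95, 3.17 and 4.80 in WT, was at least 15.1-fold lower (adjusted p = 0.00404), but not without WT C (adjusted p = 0.0549). Abhd6, a lipase that breaks down the endocannabinoid 2-arachidonoylglycerol, was at 3.22, 3.78 and 3.94 in WT and at least 11.1-fold lower (adjusted p = 0.0414). BC021767 and 6530402F18Rik, which have no well-known role, had ratios of 84.8 (14.9 to 3380, adjusted p = 0.0375) and 21 (5.53 to 178, adjusted p = 0.00731). The calls of Abhd6 and BC021767 ended with any 1 of the 6 libraries left out, at adjusted p from 0.0884 to 0.269 and from 0.0605 to 0.23. That of 6530402F18Rik ended without WT A (adjusted p = 0.0535) or WT B (0.0589). With voom Gpr141, BC021767 and 6530402F18Rik missed the threshold (adjusted p 0.0575 to 0.125), and with a pseudocount of 0.25 Mmp8, Abhd6 and BC021767 did (0.0698 to 0.162).

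Complement showed 4 lower genes of 21 measured, the 3 C1q subunits among them, and the list median was -0.56 against -0.01 over all genes tested (0.31% lower). Without WT C, KO B or KO C that median was -0.26, -0.32 or -0.37. C1qb was at 7.50, 7.68 and 7.94 in WT A, B and C and at 5.13, 5.12 and 5.13 in KO, the tightest KO values among the 3 subunits. It differed by -2.58 (SE 0.30, adjusted p = 0.000107), a 5.97-fold lower level. C1qc was at 8.19, 8.37 and 8.24 in WT and at 6.67, 5.75 and 6.11 in KO, a difference of -2.09 (SE 0.32, adjusted p = 0.00227). C1qa was the scarcest subunit, at 4.93, 4.73 and 4.69 in WT and 1.39, 3.35 and 0 in KO, where the spread between libraries was widest. It differed by -3.21 (SE 0.58, adjusted p = 0.0104), but the call ended without WT A (adjusted p = 0.0722), WT B (0.0568) or WT C (0.0549). The calls of C1qb and C1qc held in each of these fits. C1qa also missed the threshold with voom (adjusted p = 0.51), with only the 6 medium libraries (0.31) and with no variance trend (0.108), and C1qc with no variance trend (0.0623). In bulk RNA, fewer cells making C1q and less C1q RNA per cell cannot be told apart.

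With IFNγ all 3 subunits were higher in both genotypes and the difference between genotypes was close to 0. C1qb stood at 11.60, 11.63 and 10.33 in WT and 11.14, 11.31 and 10.23 in KO libraries, and the groups overlapped (difference -0.29, SE 0.30, adjusted p = 0.75). C1qc differed by -0.28 (SE 0.32, adjusted p = 0.785) and C1qa by 0.08 (SE 0.58, adjusted p = 0.977). The change of the C1qb difference between treatments was 2.28 (SE 0.43) and did not pass over all genes (adjusted p = 0.106). It was 2.19 (SE 0.28, adjusted p = 0.00325) without the IFNγ libraries of letter C. For C1qa the change was 3.29 (SE 0.82, adjusted p = 0.379), and it passed without KO medium B (adjusted p = 0.0351), the KO library with 12 of the 13 C1qa reads.

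**Figure D2:**
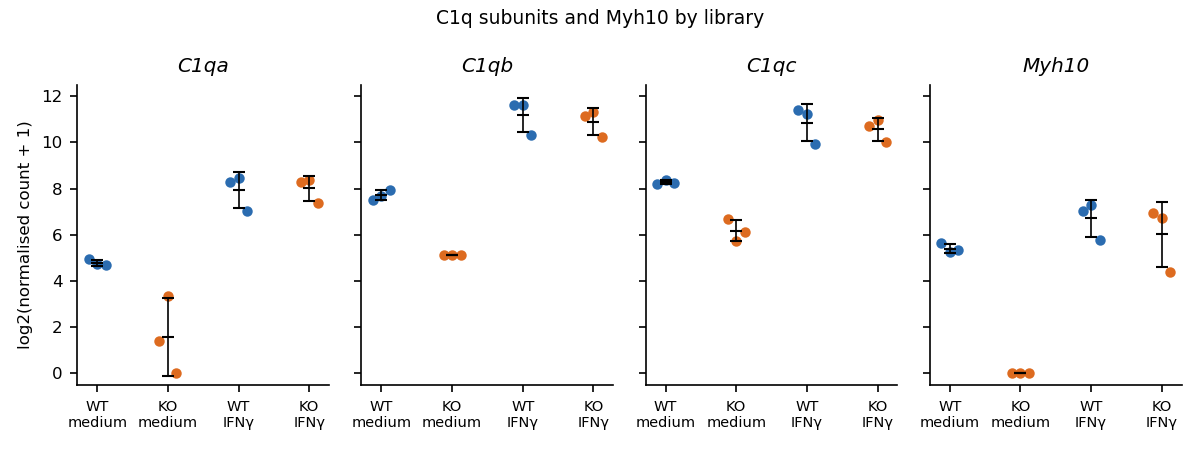
The log2(normalised count + 1) of the C1q subunits and Myh10 in each of the 12 libraries, in the order A, B, C within a group, with each group's mean and SD (n = 3). The KO libraries in medium lie below all other libraries for each of these genes, and with IFNγ the genotypes overlap.

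Among other complement genes, C3, the central component of the cascade, was at 1.1 (SE 0.44, adjusted p = 0.501) and its receptor C3ar1 at 0.19 (SE 0.18, adjusted p = 0.884).

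Maf, a transcription factor that sustains the resident macrophage programme, was the only 1 of 43 microglial and macrophage identity genes that passed with limma on the log2 values. It was at 10.68, 10.40 and 10.99 in WT and 9.39, 9.39 and 9.80 in KO, a difference of -1.16 (SE 0.19, adjusted p = 0.00404). Under IFNγ it was at -0.43 (SE 0.19, adjusted p = 0.361), and in medium it missed the threshold with only the 6 medium libraries in the fit (adjusted p = 0.091). The mannose receptor Mrc1 was at -2.77 and did not pass there (SE 0.76, adjusted p = 0.175), while voom called 2 genes of the list, Mrc1 and Maf. The identity list had 30 of 43 members below WT (69.8%, beside 51.1% of all genes) and a median of -0.16.

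Genes of the interferon response were among those that differed without any interferon added. Usp18, a protease that removes ISG15 and dampens interferon signalling at the receptor, was at 4.62, 5.11 and 5.61 in WT A, B and C and 2.55, 3.11 and 3.78 in KO. The groups did not overlap and the difference was -1.96 (SE 0.34, adjusted p = 0.00731), though it missed the threshold without WT C (adjusted p = 0.067). Lgals3bp, a secreted glycoprotein that binds galectins, was at 5.65, 5.70 and 6.61 in WT and 3.42, 4.38 and 3.89 in KO, a difference of -2.09 (SE 0.33, adjusted p = 0.00349). H2-K1, a classical class I molecule, was at 8.73, 8.99 and 9.57 against 7.73, 7.25 and 7.74, a difference of -1.52 (SE 0.21, adjusted p = 0.000757). Under IFNγ it was at -1.81 (SE 0.21, adjusted p = 0.000136). With voom Usp18 (adjusted p = 0.309) and Lgals3bp (0.218) missed the threshold, and with only the 6 medium libraries so did Usp18 (0.27), Lgals3bp (0.156) and H2-K1 (0.0828). Class I genes are near-identical to each other. How reads that match several of them were counted was not checked, so the value of H2-K1 alone is uncertain.

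Of the 64 antiviral genes measured, Usp18 and Lgals3bp passed (2 of 64, beside 0.31% lower over all genes), and 0 of 64 passed with voom. A further 13 were lower at an unadjusted p under 0.05 and none was higher. In all, 54 of 64 (84.4%) were below WT, against 51.1% of all genes, and the median was -0.38 against -0.01. Ifit1, which binds viral RNA caps, was at -1.95 (SE 0.67, adjusted p = 0.379), Oas2, which makes the second messenger for RNase L, at -1.82 (SE 0.53, adjusted p = 0.225), and Rsad2, the antiviral enzyme viperin, at -1.01 (SE 0.30, adjusted p = 0.229). The 27 members without an ISRE in the window had a median of -0.34 and the 23 with one -0.61, while 24 of the 27 and 18 of the 23 were below WT.

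This shift was not clear of the spread between libraries. Taken as the list's median distance from the mean of the 6 medium libraries, WT A, B and C stood at -0.11, 0.20 and 0.73 and KO A, B and C at -0.41, -0.25 and 0.07. The groups overlapped, since KO C was above WT A. Without WT A or WT C the list's median difference was -0.62 or -0.17. With IFNγ the list median was -0.85, and the WT libraries, at 0.50, 0.56 and 0.26, all stood above the KO libraries, at -0.41, -0.28 and -0.48. Rsad2 passed there at -1.85 (SE 0.30, adjusted p = 0.00426).

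The list of interferon-induced GTPases, which IFNγ drives, had no gene past the threshold in medium. It does not hold 9930111J21Rik2, a gene of a related name that passed and is described below. Of 22 list members measured, none passed (limma, 0 called, 3 at an unadjusted p under 0.05, 0 by voom), 11 were below WT and the median was -0.12. Their median with IFNγ was 0.36, but the groups overlapped: as the list's median distance from the mean of the 6 IFNγ libraries, WT A, B and C stood at 0.50, 0.57 and -1.63 and KO A, B and C at 0.44, 0.43 and -0.40. Both genotypes were lowest in library C, and in A and B the KO library was below the WT one. The IFNγ receptor chain Ifngr1 was at -0.25 (SE 0.34, adjusted p = 0.927), and Irf1 at -0.18 (SE 0.45, adjusted p = 0.965). Of 29 receptor, JAK-STAT and IRF genes none passed (2 unadjusted, 0 by voom), and Irf9, the DNA-binding subunit of ISGF3, was at -0.99 (SE 0.30, adjusted p = 0.252). Tnf was at -0.22 (SE 0.35, adjusted p = 0.94), and 0 of 33 NF-kB and TNF signalling genes passed (3 unadjusted, 0 by voom). The GTPase median ran from -0.27 without KO A and -0.25 without WT A to 0 without WT C or KO B.

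**Figure D3:**
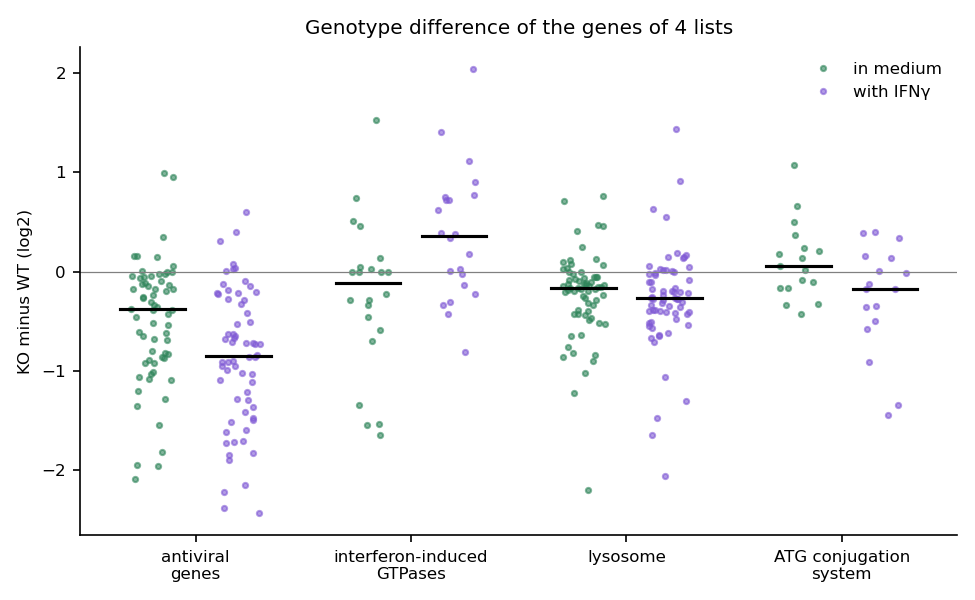
KO minus WT (log2) of each measured gene of 4 lists, in medium (green) and with IFNγ (purple), with the list's median as a black bar. The antiviral medians are -0.38 and -0.85, the GTPase medians -0.12 and 0.36, the lysosome medians -0.16 and -0.27 and the ATG conjugation medians 0.05 and -0.17.

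Gm8995 is annotated as a transcribed unprocessed pseudogene and 9930111J21Rik2 as protein-coding, and RefSeq lists 9930111J21Rik2 under the synonym Irgb5, of the immunity-related GTPase family. Gm8995 was at 5.34, 5.66 and 6.11 in WT and 4.24, 4.33 and 3.78 in KO, a difference of -1.59 (SE 0.28, adjusted p = 0.00826), which missed the threshold without WT C (adjusted p = 0.0712). 9930111J21Rik2 was at 7.12, 6.52 and 7.21 against 5.20, 5.64 and 5.97, a difference of -1.35 (SE 0.28, adjusted p = 0.0325). Its call ended without WT A (adjusted p = 0.137), WT C (0.199), KO A (0.157) or KO B (0.101). With voom Gm8995 (0.291) and 9930111J21Rik2 (0.134) missed the threshold. Both belong to families of near-identical copies, and how reads that match several copies were counted was not checked. Nub1, an interferon-inducible protein that sends NEDD8 conjugates to the proteasome and was named after its values were seen, was at 9.34, 9.39 and 9.53 against 8.62, 8.47 and 8.54. It differed by -0.88 (SE 0.18, adjusted p = 0.0241), a call that ended with any 1 library left out (adjusted p 0.0587 to 0.15). With IFNγ 9930111J21Rik2 and Nub1 were above WT by 0.15 and 0.34, and neither passed; with C1qa they are the 3 of 47 genes whose sign differed there.

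The remaining lower genes had no common list. Fabp3, a cytosolic fatty acid carrier, was at 6.29, 6.47 and 6.45 in WT and 4.75, 4.03 and 2.88 in KO, a difference of -2.52 (SE 0.52, adjusted p = 0.0322), and under IFNγ the value was -3.96 (SE 0.52, adjusted p = 0.000444). In medium it passed without KO A, and missed the threshold with any other library left out (adjusted p 0.0942 to 0.188). Its relative Fabp4 was at -1.33 (SE 0.32, adjusted p = 0.0927). Pmp22, a membrane protein of myelin and of epithelial junctions, differed by -1.92 (SE 0.35, adjusted p = 0.0104), and Ush1c, the scaffold harmonin, by -1.32 (SE 0.22, adjusted p = 0.00428). Pdk3, a kinase that restrains pyruvate dehydrogenase, differed by -1.61 (SE 0.34, adjusted p = 0.036). Ush1c missed the threshold without WT B (adjusted p = 0.0524). With 1 library left out, Pmp22 passed only without KO A or KO C (adjusted p 0.0506 to 0.0799 otherwise), and Pdk3 only without KO A (0.0892 to 0.246 otherwise). With only the 6 medium libraries Fabp3, Pmp22 and Pdk3 missed the threshold (0.15 to 0.175). Pdk3 missed it with voom as well (adjusted p = 0.143).

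Kdr, the VEGF receptor 2 of endothelial cells, was at 9.23, 8.78 and 8.28 in WT and 7.15, 7.40 and 7.45 in KO, a difference of -1.43 (SE 0.26, adjusted p = 0.0104). The call ended without WT A (adjusted p = 0.0826), WT B (0.0589) or KO A (0.0579), and with only the 6 medium libraries (0.111). Kdr is 1 of 7 endothelial markers, of which Tek, Cldn5 and Emcn had no read in any library. The summed level of the 7 was 332 to 610 normalised counts in WT and 157 to 185 in KO libraries. Most of that sum was Kdr itself, so it is no separate measure of the other markers. Kdr was the only marker of another cell type that differed, and the part of other cells in its difference was not tested.

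Of the 13 higher genes, all were also above WT with IFNγ and 3 passed there. Cnppd1, a cyclin-like membrane protein, was at 8.18, 8.31 and 8.62 in WT and 9.75, 9.77 and 9.80 in KO, a difference of 1.40 (SE 0.18, adjusted p = 0.000304). Under IFNγ it was 1.41 (SE 0.18, adjusted p = 0.000312). S100a6, the calcium-binding protein calcyclin, was at 5.04, 4.89 and 5.11 in WT and 7.54, 7.38 and 7.71 in KO, a difference of 2.53 (SE 0.33, adjusted p = 0.000332), or 5.77-fold, and one of 2.05 under IFNγ (SE 0.33, adjusted p = 0.00417). These 2 calls held whichever library was left out, and the WT and KO values of both lay far apart relative to their spread.

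Arhgdig, an inhibitor that keeps small GTPases off membranes, was at 3.63, 3.78 and 3.53 in WT and 5.32, 6.35 and 5.92 in KO. The differences were 2.21 in medium (SE 0.41, adjusted p = 0.0115) and 2.34 with IFNγ (SE 0.41, adjusted p = 0.00896). In medium it passed when KO A was left out and missed the threshold with any other library left out (adjusted p 0.0524 to 0.107). Nr2f1, the orphan nuclear receptor COUP-TFI, was at 3.22, 2.07 and 3.11 against 5.77, 4.91 and 4.78, a difference of 2.35 (SE 0.51, adjusted p = 0.0453) that ended with any 1 library left out (adjusted p 0.0751 to 0.279). Cp, the ferroxidase ceruloplasmin, differed by 1.95 (SE 0.41, adjusted p = 0.0375), and it passed only without WT C among these fits (adjusted p 0.107 to 0.212 otherwise). Cp was the only 1 of 20 iron and haem genes that passed.

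Ckb, the brain-type creatine kinase, differed by 1.71 (SE 0.31, adjusted p = 0.0108), and Plpp1, a phosphatase of lipid phosphates, by 1.52 (SE 0.26, adjusted p = 0.00596). Crim1, a membrane protein that binds BMPs, differed by 1.31 (SE 0.26, adjusted p = 0.0241), and Uchl1, a deubiquitinating enzyme abundant in neurons, by 1.29 (SE 0.26, adjusted p = 0.0221). Pcdh7, a protocadherin, differed by 1.05 (SE 0.19, adjusted p = 0.0104). Of 7 neuronal markers, 5 (Tubb3, Snap25, Syt1, Nefl and Stmn2) had no read in any library. The 7 together summed to at most 3.83 normalised counts in a WT library in medium and to 0 in the KO libraries. Gm26917, annotated as a long noncoding RNA and placed in the list of nuclear-retained RNAs, differed by 1.54 (SE 0.31, adjusted p = 0.0271). Whether its reads come from a nuclear RNA was not tested. Nuclei were left behind in the lysis, so RNAs held in the nucleus are under-represented here in every group.

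Among these 6, Plpp1 missed the threshold without WT A (adjusted p = 0.0506), and Pcdh7 without WT C (0.0901) or KO A (0.073). Ckb passed only without WT C or KO B (adjusted p 0.0587 to 0.0794 otherwise). Crim1 passed only without WT C or KO B (0.0535 to 0.215 otherwise), Uchl1 only without KO A or KO B (0.0524 to 0.159), and Gm26917 only without WT B or KO C (0.101 to 0.159). The other 2 higher genes were named after their values were seen. Hspb7, a small heat shock protein of heart muscle, was at 1.33, 0 and 1.54 in WT and 4.35, 5.57 and 4.67 in KO, a difference of 3.91 (SE 0.77, adjusted p = 0.0218). Slc39a4, an intestinal zinc importer, had 1 read in WT and 24 in KO, a ratio of 30.3 (4.94 to 1246, adjusted p = 0.0404). Both calls ended with any 1 library left out, at adjusted p 0.0502 to 0.175 and 0.0608 to 0.185. With only the 6 medium libraries Cnppd1 and S100a6 alone of the 13 higher genes passed, and with voom Cp, Nr2f1, Gm26917 and Slc39a4 missed the threshold (adjusted p 0.139 to 0.428).

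**Figure D4:**
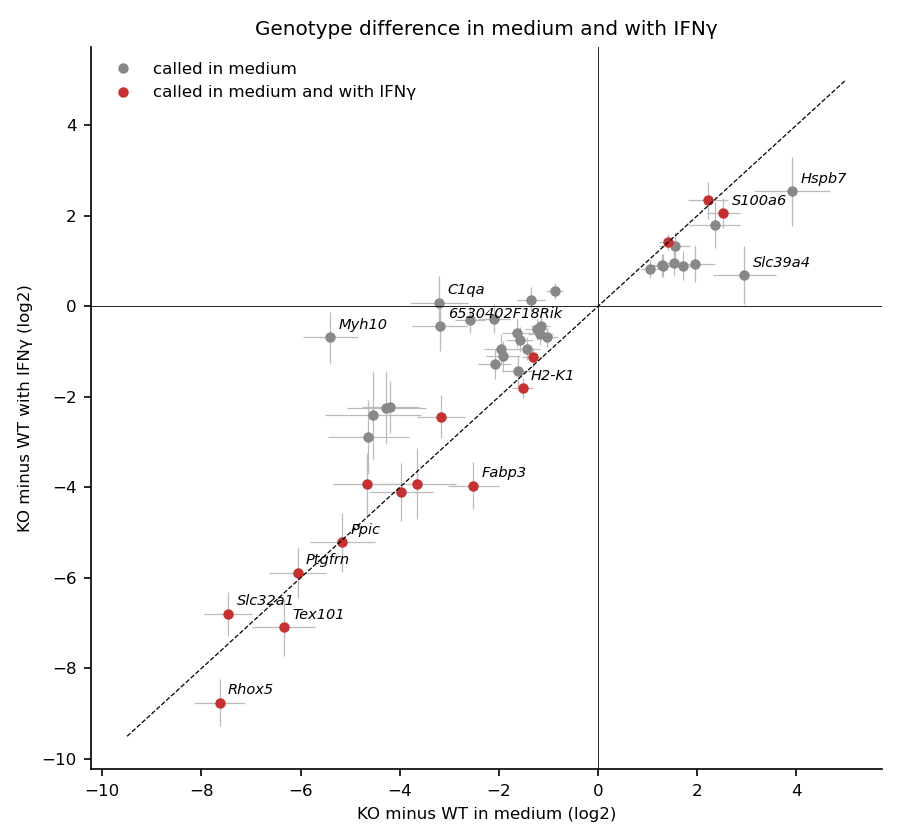
KO minus WT (log2, with SE) of the 47 genes in medium on the horizontal axis and with IFNγ on the vertical axis, red where they also passed with IFNγ; the dashed line marks equal differences. Fitted values of genes with no KO read depend on the pseudocount and are not bounds. Rhox5, Slc32a1, Tex101, Ptgfrn and Ppic lie near the line, while Myh10 and C1qa lie near 0 with IFNγ.

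Across the 2 treatments 38 of the 47 genes had the smaller difference with IFNγ, 27 lower and 11 higher ones. The genes were chosen for their difference in medium, so a smaller value in other libraries follows in part from that choice. No gene passed for the change of the difference between treatments (limma, 0 called, 792 at an unadjusted p under 0.05, 0 by voom). It passed for Myh10, Mki67 and C1qb without the IFNγ libraries of letter C. Mki67, the marker of cycling cells, was at 10.26, 10.31 and 10.03 in WT and 9.03, 9.79 and 9.40 in KO in medium, a difference of -0.79 (SE 0.28, adjusted p = 0.394). Under IFNγ the order was opposite, at 8.33, 8.84 and 9.49 against 10.34, 9.63 and 10.62, a difference of 1.31 (SE 0.28, adjusted p = 0.0384). Of 53 cell cycle genes none passed in medium (2 unadjusted, 0 by voom) and the median was 0.01.

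The transcript of the deleted gene was not lower. Atg5 was at 8.57, 8.51 and 8.35 in WT and 8.68, 9.02 and 8.84 in KO, a difference of 0.37 (SE 0.17, adjusted p = 0.595). Reads at the 3′ end need not cross an edited site, so this level is no check of the genotype, and the loss of Atg5 protein was not measured here. None of the 17 genes of the ATG conjugation system passed (limma, 0 called, 1 at an unadjusted p under 0.05, 0 by voom), and their median was 0.05. Its partners were close to WT, with Atg16l1 at 0.20 (SE 0.27, adjusted p = 0.926), the E1 enzyme Atg7 at -0.11 (SE 0.20, adjusted p = 0.95) and the LC3 gene Map1lc3b at 0.02 (SE 0.18, adjusted p = 0.996). Without WT B or KO A the list median was 0.14.

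Of 34 genes of autophagosome initiation and fusion and 18 cargo receptors, none passed, with 3 and 2 at an unadjusted p under 0.05 (voom called 0 in both). The cargo receptor Sqstm1, whose protein is itself removed by autophagy, was at 10.17, 9.90 and 10.12 in WT and 10.58, 9.72 and 10.33 in KO libraries. These groups overlapped (difference 0.15, SE 0.20, adjusted p = 0.927). The class III kinase subunit Becn1 was at -0.09 (SE 0.21, adjusted p = 0.964) and the lysosome regulator Tfeb at 0.46 (SE 0.32, adjusted p = 0.785).

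The lysosome list leaned low with no single gene past the threshold. Of 66 genes 53 (80.3%, beside 51.1% of all genes) were below WT, with a median of -0.16 (-0.27 with IFNγ). At an unadjusted p under 0.05, 12 of the 66 were lower and 3 higher, beside 4.74% and 3.52% of all genes (limma, 0 called, 0 by voom). As list medians, WT A, B and C stood at -0.02, 0.09 and 0.22 and KO A, B and C at -0.10, -0.08 and -0.05, so the groups did not overlap, though WT A lay close to KO C. The proton pump subunit Atp6v0d2 was at -2.21 (SE 0.57, adjusted p = 0.137), the collagen-degrading protease Ctsk at -1.22 (SE 0.28, adjusted p = 0.072) and Ctss, which trims the class II invariant chain, at -0.82 (SE 0.21, adjusted p = 0.135). The protease Ctsd was at 12.49, 12.42 and 12.77 in WT and 12.17, 11.92 and 12.04 in KO (difference -0.52, SE 0.20, adjusted p = 0.492). Lamp1, a main protein of the lysosomal membrane, was at -0.14 (SE 0.16, adjusted p = 0.905).

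The stress and metabolic lists had no gene past the threshold. This held for NRF2 and glutathione genes (0 of 40, 1 at an unadjusted p under 0.05), the integrated stress and unfolded protein response (0 of 44, 2 unadjusted), p53 targets (0 of 24, 3 unadjusted), glycolysis and hypoxia (0 of 30, 1 unadjusted), the respiratory chain (0 of 76, 3 unadjusted), cholesterol and fatty acid synthesis (0 of 34, 2 unadjusted), ribosomal proteins (0 of 78, 1 unadjusted) and the proteasome (0 of 31, 1 unadjusted). None of these 8 lists had a call by voom, and their medians lay between -0.11 and 0.12. Below WT were 25 of 34 genes of cholesterol and fatty acid synthesis (73.5%) and 6 of 24 p53 targets (25%), beside 51.1% of all genes. In the other lists named here the share lay between 40% and 56.8%. The stress factor Atf4 was at -0.05 (SE 0.23, adjusted p = 0.987), the haem oxygenase Hmox1 at -0.61 (SE 0.29, adjusted p = 0.611) and the cell cycle inhibitor Cdkn1a at 0.11 (SE 0.21, adjusted p = 0.952). Class II presentation had 0 of 10 genes past the threshold (1 unadjusted, 0 by voom), with its invariant chain Cd74 at 1.17 (SE 0.26, adjusted p = 0.0541). Of 17 chemokine and receptor genes none passed (3 at an unadjusted p under 0.05, 0 by voom). Ccl5, which draws T cells and monocytes, was at -1.34 (SE 0.38, adjusted p = 0.2) and passed with IFNγ at -2.61 (adjusted p = 0.00173).

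Genes that differed were also looked up by position, a choice made after values were seen. Bora, Dis3 and Pibf1 are neighbours on chromosome 14, Bora at chr14:99046222-99074540, Dis3 at chr14:99075206-99099770 and Pibf1 at chr14:99099424-99254493. Bora, an activator of the mitotic kinase Aurora A, was 666 bases from Dis3, an RNA-degrading exosome enzyme, which overlaps the start of Pibf1, a centrosomal protein, on the opposite strand. Bora differed by -1.17 (SE 0.25, adjusted p = 0.0362), Dis3 by -1.02 (SE 0.22, adjusted p = 0.0375) and Pibf1 by -1.63 (SE 0.31, adjusted p = 0.0181). Diaph3, an actin-nucleating formin elsewhere on the chromosome at chr14:86655367-87141235, differed by -1.24 (SE 0.24, adjusted p = 0.016). Of 20 genes tested from 85 to 105 Mb, 17 (85%, beside 51.1% of all genes) were below WT, with a median of -0.55. No higher gene there had an unadjusted p under 0.05. With IFNγ 15 of the 20 were below WT with a median of -0.34. Without KO C the median in medium was -0.35. From 75 to 80 Mb of the same chromosome, 21 of 26 genes were below WT in medium, with a median of -0.38. With IFNγ only 12 of the 26 were below WT, with a median of 0.07. Of 363 windows of 5 Mb with at least 10 genes tested, this one had the lowest median in medium. In all, 7 windows had a median below -0.3.

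These 4 calls were fragile. Bora passed only without WT A (adjusted p 0.0672 to 0.282 otherwise), Pibf1 only without WT A (0.0513 to 0.15), Diaph3 only without WT B (0.0519 to 0.107) and Dis3 only without KO A (0.125 to 0.202). With only the 6 medium libraries all 4 missed the threshold (0.0582 to 0.18). Bora (adjusted p = 0.0577) and Pibf1 (0.0694) missed it with voom, and Diaph3 (0.0747) and Dis3 (0.162) with no variance trend. The interval from 85 to 105 Mb was chosen after values were seen and holds these 4 genes. A separation of its medians in medium follows in part from that choice. The medians of the 20 genes were 0.31, 0.21 and 0.33 in WT A, B and C and -0.07, -0.45 and -0.46 in KO. With IFNγ they were 0.15, 0.18 and 0.31 in WT and -0.21, -0.30 and -0.14 in KO.

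Medians were also taken over whole chromosomes, Y left out. The 889 genes tested on chromosome 2 had a median of -0.14 in medium and -0.16 with IFNγ, and 585 of them (65.8%, beside 51.1% of all genes) were below WT in medium. The medians of the other 19 chromosomes lay between -0.04 and 0.08 in medium, the highest on chromosome 16, and between -0.04 and 0.15 with IFNγ. The highest with IFNγ was that of chromosome 12, where 245 of 380 genes were above WT, beside 0.06 in medium. As deviations, the chromosome 2 medians were 0.04, 0.05 and 0.06 in WT A, B and C and -0.06 in each KO library, and with IFNγ 0.05, 0.04 and 0.07 against -0.08, -0.06 and -0.09. The genes called there, Slc32a1 and 6530402F18Rik among them, were 3 of 889 (0.337%, beside 0.428% over all genes). At an unadjusted p under 0.05, 92 of the 889 were lower and 19 higher, beside 4.74% and 3.52% of all genes. On chromosome 12 the 21 genes in the first 5 Mb had a median of 0.49 in medium and 0.45 with IFNγ, 18 of them above WT in medium. Without WT C that median in medium was 0.30. Of the 363 windows of 5 Mb, this stretch was the only 1 with a median above 0.3 in medium, so it was the highest of many looked at. The copy number of these regions was not measured here.

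**Figure D5:**
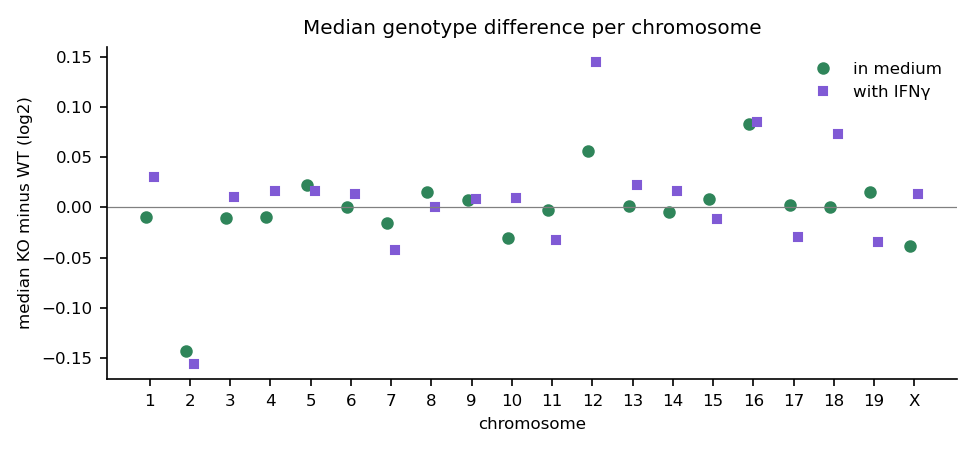
The median KO minus WT (log2) of the genes tested on each chromosome, in medium (green circles) and with IFNγ (purple squares). Chromosome 2 stands lowest in both, at -0.14 and -0.16, and the other 19 chromosomes lie between -0.04 and 0.08 in medium and between -0.04 and 0.15 with IFNγ.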

How the data were processed

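The deposited table holds log2(normalised count + 1) per gene for 12 libraries. Per the submitters' processing notes the tools were FastQC 0.11.2, STAR, HTSeq 0.6.1 and DESeq2 1.10.1 with GRCm38; dividing by size factors makes libraries of unequal depth comparable but assumes that most genes do not change. Whole reads were recovered from the values, 100% within 0.01 of a whole number, and served for depth, ratios and floors (3 reads over a group). The filter kept genes that reached a log2 of 3 in 3 or more libraries. Differences were tested with limma 3.58.1 in R 4.3.3 on 4 group means over 12 libraries (8 residual degrees of freedom, trended variance), with Benjamini-Hochberg adjustment over 10981 genes and a threshold of 0.05. With 3 libraries a group, precision is limited. Named genes are up to 20 called genes in each direction ranked by size of change, with non-overlapping groups and the higher group's mean at 5 or more, up to 3 called members of each list, and a set named whatever its result; Nqo1 and Ripk3 of that set did not pass the filter. The members and lists were chosen with earlier results of these data known. Positions are GENCODE M21 and promoters RefSeq. Of the table's genes, 735 had no symbol and 27 a number in its place. Some results are not reported here. The fit was checked on simulated data.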

Additional observations from a re-analysis of the deposited data

Results flagged for a closer look

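In 2 of the 71 named or called genes every KO library lay on one side of WT in medium and on the other with IFNγ. Over all genes tested, the groups did not overlap in 13.6% in medium and in 16.1% with IFNγ. The share on opposite sides over all genes was not counted, so these 2 cannot be called unusual. For Mki67 the change of the genotype difference from medium to IFNγ was 2.10 (SE 0.39, adjusted p = 0.106), with the KO libraries below WT in medium and above WT with IFNγ. For Atg5 the change was -0.50, with an adjusted p of 0.702, and the values in the 2 treatments were 0.37 and -0.13. Neither passed over all genes in the fit of all 12 libraries, and Mki67 passed without the IFNγ libraries of letter C (2.19, SE 0.36, adjusted p = 0.0466). Groups of 3 libraries are too small for a check of single outlying libraries.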

How the results depend on the processing

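The limits are 3 libraries a group, a shallow KO A library and no count of knockout clones. All 47 genes kept their direction in each alternative in which they were tested, 9 passed in all of the 17 alternatives run (among them S100a6, Ppic, Ptgfrn, Cnppd1, C1qb, Slc32a1, Tex101 and Rhox5), and 16 passed with any 1 medium library left out. With only the 6 medium libraries 23 genes passed, 2 higher and 21 lower, 18 of them among the 47. With voom on the recovered reads 31 passed, 10 higher and 21 lower. The cause of these changes was not tested, though the first has fewer samples to estimate the spread. With 1 library left out 24 to 39 passed, 4 to 8 higher and 18 to 33 lower. Without WT A, B or C the counts were 25, 24 and 26. A replicate block, with the letter as a term, gave 56 calls, 46 of them shared. Taken as deviations from their group means, same-letter KO and WT medium libraries correlated at 0.04, 0.06 and 0.02, each best with its own letter. The other pairs lay between -0.0443 and -0.00486. Deviations cancel out within a group, so the values of the other pairs are tied to those of the same letter. These correlations are small, and whether libraries of a letter share a batch was not tested. No filter gave 49 calls, a stricter filter 38, pseudocounts of 4 and 0.25 gave 45 and 41, TMM scaling 46, equal medians 47, no variance trend 41, and the fit without the IFNγ libraries of letter C 57. The median of all genes moved by less than 0.1 in each. For the change of the difference between treatments, 0 genes passed, against 1 (Myh10) with a replicate block, 1 (Myh10) with a pseudocount of 0.25, 1 (C1qa) without KO B and 3 with the IFNγ libraries C left out. Among the medians given, that of chromosome 2 was -0.15 with TMM scaling and -0.13 with equal medians. Fits of the recovered reads with edgeR and DESeq2 were not run; voom was the fit to those reads.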
